A study of Glycine max with 23 samples.

Results

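BIP4 and PDIL-2 are soybean (Glycine max) genes for proteins that help other proteins fold in the endoplasmic reticulum, the compartment where a cell makes the proteins it secretes or stores. Every soybean probe set annotated to 1 gene with either symbol was taken, which gave 2 of 6031 genes with such a probe set, measured by 6 of the 37593 soybean probe sets on the array. There were 2 for BIP4 (NCBI gene 547839, also listed as soyBiPD) and 4 for PDIL-2 (NCBI gene 100170706). All 6 passed the filter on low signal. No probe set annotated to several genes included either gene. The genes were selected on their measured signal in endosperm over that in the embryo regions, so this difference is given as a description, without a test.

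BiP proteins are the Hsp70 chaperones of the endoplasmic reticulum lumen: they hold unfolded chains with the help of ATP and release them as they fold. Protein disulfide isomerases, the family of PDIL-2, carry thioredoxin-like domains and form or exchange the disulfide bonds that many secreted and stored proteins need. In plants both kinds of protein are abundant in tissues that secrete or store much protein, such as the endosperm and the maturing seed, and their genes are induced when unfolded proteins accumulate.

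Signals came from the Affymetrix Soybean Genome Array, a 1-colour array of short oligonucleotides, hybridised once per sample. All 23 samples were from cultivar Asgrow A3237 kept at 22 °C under light for 16 h and darkness for 8 h. Laser capture from 8 µm sections of fixed, embedded seeds with heart-stage embryos, from pods of 1.3 to 2.0 cm, gave endosperm, embryo proper and suspensor (3 arrays each). The same capture gave 5 seed coat regions, the inner integument, outer integument, endothelium, epidermis and hilum (2 arrays each). Ground whole seeds of the same stage and ground young leaves of 1.5 to 2.5 cm added 2 arrays each. Captured and ground samples were extracted with different reagents, and 2 ng of RNA was amplified for every array. Endosperm replicate 3 was captured with another microscope model. The labels call the replicates biological without tying them to plants, so the p-values cover the spread between these samples only, which may be technical. A lower signal in a captured region can come from fewer cells with the transcript or from less of it per cell, and these cannot be told apart.

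Between 13378 and 23564 soybean probe sets per array were above background, the 95th percentile of the array's pathogen probe sets. Background was 420.1 on suspensor replicate 1 and 404.85 on endosperm replicate 1, against 86.3 to 231.4 on the other 21 arrays. The ratio of 3′ to middle actin probe sets, a sign of RNA degradation or short amplified RNA, was 493.75 on endosperm replicate 1 and 357.54 on inner integument replicate 2, against 11.32 to 164.1 on the others. The embryo marker LEC1-A was above background on every array of embryo proper, suspensor and endosperm and on none of the 10 coat arrays. WRI1B, the other embryo marker, was above it on every array of embryo proper and endosperm, 2 of suspensor and 1 of inner integument. It averaged 1914.0 in endosperm and 1460.1 in embryo proper. Of 7 seed coat markers, AGL1L, MADS28, SEP1 and PIP2-8 were above background on all 10 coat arrays, whereas HPS was above it on 1 of them and Ep on 2. ANR1 was above it on every array of endothelium, epidermis and hilum, 1 of inner integument and none of outer integument. AGL1L averaged 63.5 in embryo proper, against 2125.8 in suspensor. No marker of endosperm or suspensor was on the lists.

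By its brighter probe set, BIP4 signal was highest in inner integument and endosperm and lowest in leaf and suspensor. This probe set was above background on all 23 arrays. In endosperm it read 25450.6, 32052.9 and 28983.6 signal units, against 12758.3, 12933.8 and 9703.3 in embryo proper and 5316.0, 8452.4 and 11451.1 in suspensor. Every endosperm array stood above every array of both embryo regions, while embryo proper and suspensor overlapped. On the log2(signal + 16) scale used for all folds, endosperm was 2.96-fold above the mean of embryo proper and suspensor. That contrast chose the gene. Of all tested probe sets, 8.9% were called higher in it, and 19.2% were called in either direction. Called means a fold of 2 or more with an adjusted p below 0.05.

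In the seed coat, BIP4 read 22303.1 and 39756.1 in inner integument, 22595.5 and 20306.3 in outer integument and 16219.6 and 13229.1 in endothelium. It read 9401.5 and 11046.8 in epidermis and 9115.2 and 10883.8 in hilum. The integuments were the bright regions, epidermis and hilum the dim ones with overlapping arrays, and endothelium lay between without overlap on either side. In ground tissue it read 15856.8 and 14868.6 in whole seed, against 9729.1 and 5986.4 in leaf, with no overlap.

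**Figure D1:**
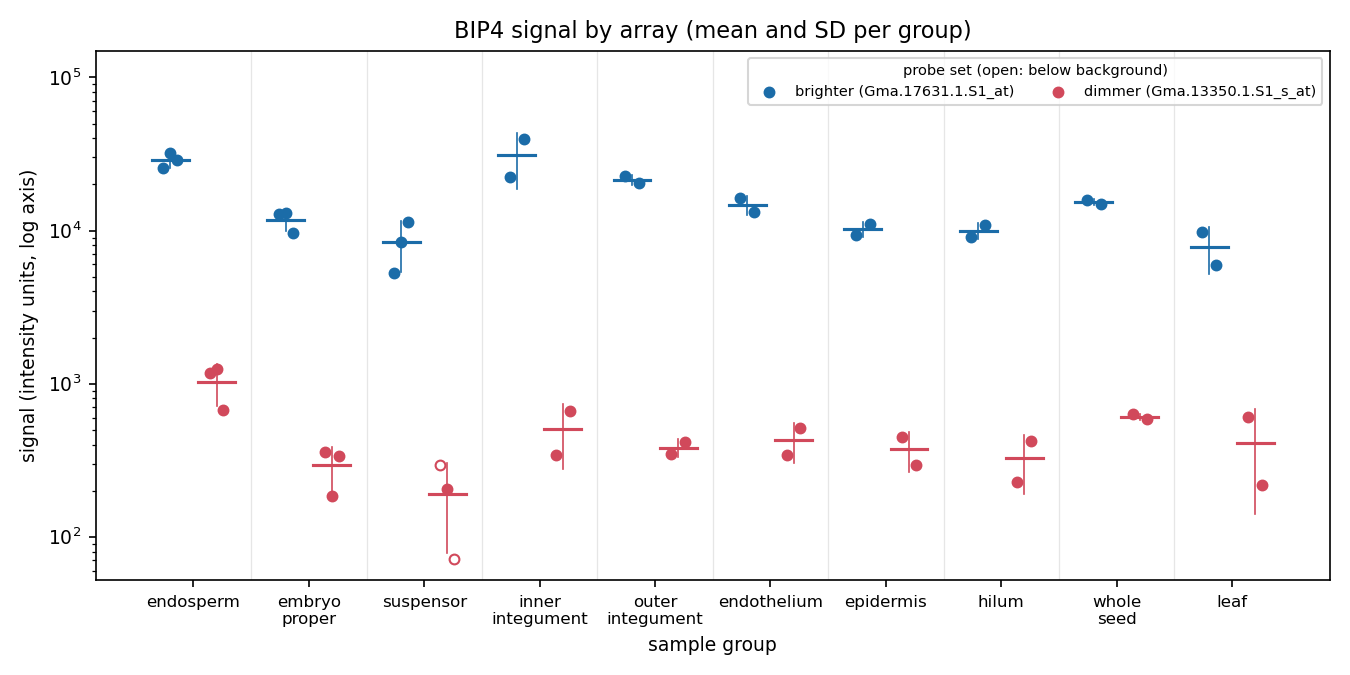
BIP4 signal on each of the 23 arrays (points, intensity units on a log axis) by sample group, with group mean (horizontal line) and SD (vertical line), for both probe sets; open points were below background. The brighter probe set is highest in inner integument (mean 31029.6) and endosperm (mean 28829.0), and endosperm is the highest group of the dimmer one.

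The 10 group means of that probe set spanned 3.95-fold. Inner integument (31029.6 ± 12341.1, SD, n = 2) and endosperm (28829.0 ± 3303.9, n = 3) overlapped and could not be ordered. Outer integument (21450.9 ± 1618.7, n = 2) came next, below every endosperm array. Whole seed (15362.7 ± 698.8) and endothelium (14724.4 ± 2114.6) overlapped each other and lay below outer integument. From embryo proper (11798.5 ± 1816.6, n = 3) down through epidermis, hilum and suspensor to leaf (7857.8 ± 2646.5, n = 2), each neighbour overlapped the next.

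The dimmer BIP4 probe set gave partly the same order. Its name ending marks a design shared between similar transcripts. It read 1171.7, 1246.1 and 669.2 in endosperm, against 358.9, 185.4 and 336.5 in embryo proper and 292.9, 204.3 and 71.4 in suspensor, where 2 of 3 arrays were below background. Endosperm lay above both embryo regions without overlap, 4.34-fold above their mean with part of that mean below background. Endosperm was its highest group (1029.0 ± 313.8), and its readings in coat, whole seed and leaf ran from 219.3 to 667.5. Unlike in the brighter probe set, whole seed (mean 607.3) averaged above inner integument (505.6), with overlap. Leaf (410.2) was not at the low end, where embryo proper (293.6) and suspensor (189.5) were. In no tested comparison was this probe set called. Across the 10 group means the BIP4 probe sets correlated at r = 0.729, and across the 23 arrays at r = 0.59, a description of arrays that share a platform and a scaling.

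By its brightest probe set, PDIL-2 signal was highest in inner integument and endosperm and lowest in embryo proper and hilum. This probe set read 1820.0, 2810.3 and 4544.6 in endosperm, against 766.6, 601.0 and 594.1 in embryo proper and 741.4, 1382.2 and 1728.0 in suspensor. Endosperm exceeded all 6 embryo arrays, the lowest endosperm array by a small margin over the highest suspensor array. Endosperm was 3.18-fold above the mean of both embryo regions, again in the contrast that chose the gene.

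In the seed coat this PDIL-2 probe set read 2324.3 and 3869.0 in inner integument, 1226.6 and 1103.7 in outer integument and 1986.8 and 2437.6 in endothelium. It read 881.4 and 1322.5 in epidermis and 769.6 and 841.5 in hilum. Inner integument and endothelium were the bright regions and overlapped, and both hilum arrays were below every other coat array. In ground tissue it read 2357.4 and 1817.3 in whole seed, against 1764.9 and 1546.5 in leaf, a narrow gap without overlap.

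**Figure D2:**
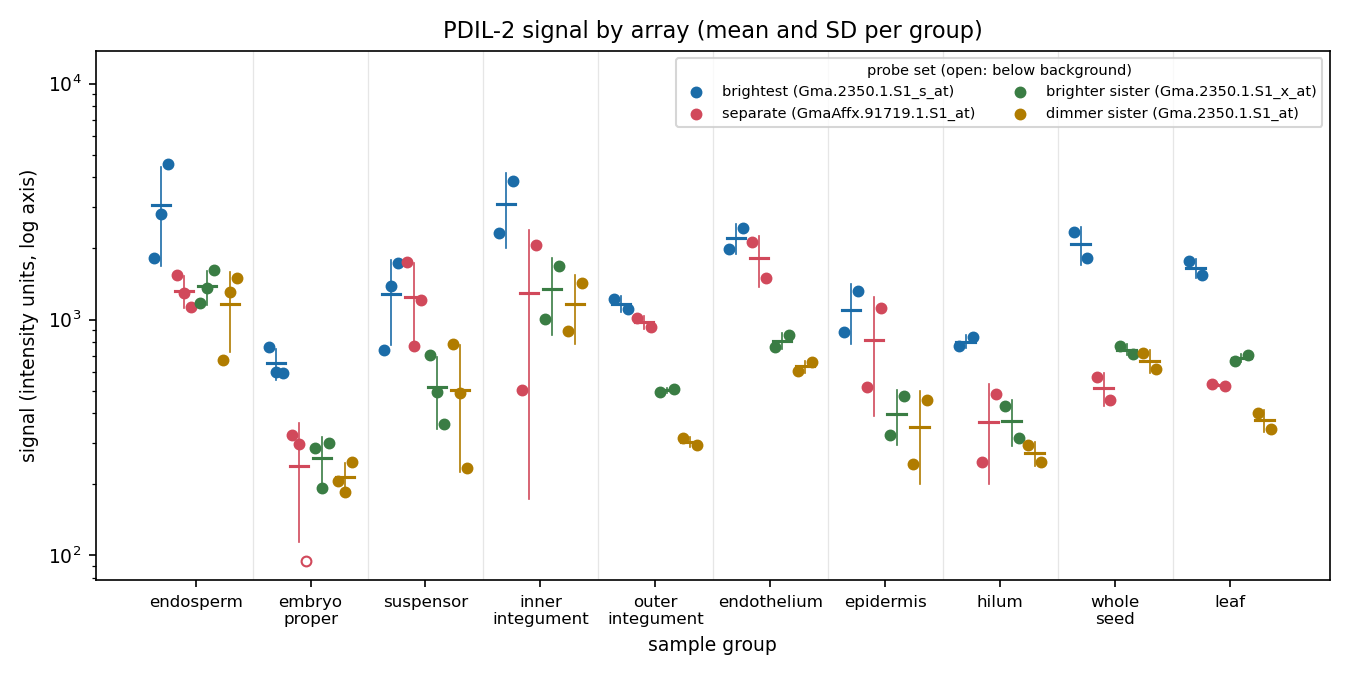
PDIL-2 signal on each of the 23 arrays (points, intensity units on a log axis) by sample group, with group mean and SD, for the 4 probe sets; open points were below background. The brightest probe set and its 2 sisters move together, with endosperm and inner integument on top, while the separate probe set is highest in endothelium (mean 1820.6).

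The 10 group means of the brightest PDIL-2 probe set spanned 4.74-fold. Inner integument (3096.6 ± 1092.3, SD, n = 2) and endosperm (3058.3 ± 1379.1, n = 3) could not be ordered, and endosperm overlapped endothelium (2212.2 ± 318.8, n = 2), which overlapped whole seed (2087.4 ± 381.9). Leaf, suspensor, outer integument and epidermis followed, each overlapping the next. Hilum (805.6 ± 50.8, n = 2) and then embryo proper (653.9 ± 97.7, n = 3) had the lowest means. Hilum did not overlap epidermis or embryo proper, the latter by a narrow gap (769.6 against 766.6). Suspensor replicate 1, at 741.4, lay below the hilum arrays and inside the range of embryo proper.

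The other 3 PDIL-2 probe sets fell into 2 kinds. The brightest probe set has the same shared-design ending as the dimmer BIP4 one, and the ending of the brighter sister marks probes that may cross-hybridise, so other transcripts may add to both. The 2 sister probe sets carry the same cluster name as the brightest one and correlated with it at r = 0.983 and 0.956 over the 10 group means, so the 3 are not independent readings. Their endosperm levels were 3.71-fold and 3.41-fold above the mean of the embryo regions. For the dimmer sister an endosperm array (674.8) lay below a suspensor array (790.7). The separate probe set, designed on another sequence, correlated with the 3 at only 0.651 to 0.681. Whether it measures the same transcript as they do is uncertain, so its values stand for PDIL-2 by annotation alone. It read 1542.1, 1291.2 and 1132.7 in endosperm, against 325.4, 296.8 and 95 in embryo proper and 1752.0, 772.7 and 1206.6 in suspensor. Here endosperm and suspensor overlapped and only embryo proper was low, so the 2.54-fold difference of the choosing contrast rested on 1 of the embryo regions.

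Embryo proper and suspensor, the embryo's body and the stalk that anchors it, were compared to see whether either gene differed within the embryo. The arrays of both regions also entered the contrast that chose the genes, so the p-values here do not come from unused arrays. The brightest probe set of neither gene was called. BIP4 differed by 0.54 ± 0.27 (log2, SE), 1.46-fold higher in embryo proper, with an adjusted p of 0.16 from limma. PDIL-2 differed by -0.88 ± 0.36, 1.84-fold lower in embryo proper, with an adjusted p of 0.075. Of the 6 probe sets 1 was called, where 23.1% of all tested probe sets were. It was the separate probe set of PDIL-2, 5.24-fold lower in embryo proper (-2.39 ± 0.50, adjusted p = 0.0011), on arrays that did not overlap. Of its embryo proper arrays 2 of 3 were above background, so the fold is partly against a level below it. The 3 other PDIL-2 probe sets pointed the same way, at -0.88 to -1.03. The summed signal of the 7 seed coat markers was 637.9 to 848.5 in embryo proper and 4456.2 to 16957.5 in suspensor, and its part in this difference was not tested. The markers did not move as 1: Ep, which averaged 141.8 in embryo proper and 7560.1 in suspensor, made up most of the suspensor sum but was above background on only 2 of the 10 coat arrays. PIP2-8, bright in every coat region, averaged 246.2 in embryo proper and 142.6 in suspensor, and HPS was above background in neither. The others averaged higher in suspensor: AGL1L (63.5 in embryo proper, 2125.8 in suspensor), ANR1 (129.8, 1232.7), MADS28 (29.7, 477.7) and SEP1 (49.6, 219.0). SEP1 was above background on 1 of 3 suspensor arrays. Without suspensor replicate 1 the brightest PDIL-2 probe set was called as well (-1.23, adjusted p = 0.012). Scaling the arrays to equal medians of detected probe sets moved the median of all tested probe sets in this comparison to 0.30, against 0.07 as deposited, and 66.3% of the calls were then higher in embryo proper, against 54.8%.

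Among the 5 seed coat regions both genes differed. The F test over the regions called both brightest probe sets, BIP4 with a range of 1.58 (log2) between its highest and lowest region (adjusted p = 0.0026) and PDIL-2 with a range of 1.88 (adjusted p = 0.0093). In all, 4 of the 6 probe sets were called, those of PDIL-2 from the same cluster, and 25.8% of all tested probe sets were. The exceptions were the dimmer BIP4 probe set and the separate PDIL-2 probe set (adjusted p = 0.066). Without inner integument replicate 2 the BIP4 call held, whereas none of the 3 PDIL-2 calls did (adjusted p = 0.062 to 0.16). None of the coat arrays entered the contrast that chose the genes. The genes and tests were still chosen with earlier results of these data known.

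Inner integument, the inner layer of tissue that grows into the seed coat, was the region that stood out for the brightest probe sets. BIP4 was 2.23-fold higher in inner integument than in the other 4 regions (1.16 ± 0.27, adjusted p = 0.0031). PDIL-2 was 2.43-fold higher (1.28 ± 0.34, adjusted p = 0.0098), and its sister probe sets were 2.58-fold and 3.03-fold higher (adjusted p = 0.0055 and 0.008). So 4 of 6 probe sets were called, all of them higher, against a background of 7.66% called higher among all tested probe sets, 11.2% called lower and 18.8% in all. The PDIL-2 calls came from the same cluster and are not independent. By limma the dimmer BIP4 probe set (1.3-fold higher, adjusted p = 0.65) and the separate PDIL-2 probe set (1.23-fold higher, adjusted p = 0.72) were not called. For both brightest probe sets the lower inner integument array lay just inside the range of the other regions. BIP4 read 22303.1 there against 22595.5 in an outer integument array, and PDIL-2 read 2324.3 against 2437.6 in an endothelium array.

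The call rested on inner integument replicate 2, the array with the highest BIP4 signal of all 23 and the second-highest actin ratio. Without it BIP4 was 0.74 higher (adjusted p = 0.19) and PDIL-2 was 0.92 higher (adjusted p = 0.23), both still on the same side, and neither PDIL-2 sister was called (adjusted p = 0.17 each). With equal medians, where the median of all tested probe sets fell to -0.25 against -0.05 as deposited, BIP4 was 0.94 higher (adjusted p = 0.035, under 2-fold) and PDIL-2 1.07 higher (adjusted p = 0.073). Relative to that median they stood 1.19 and 1.32 above it, against 1.21 and 1.33 as deposited. Equal medians left 29.3% of all calls in this comparison higher in inner integument, against 40.7%.

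**Figure D3:**
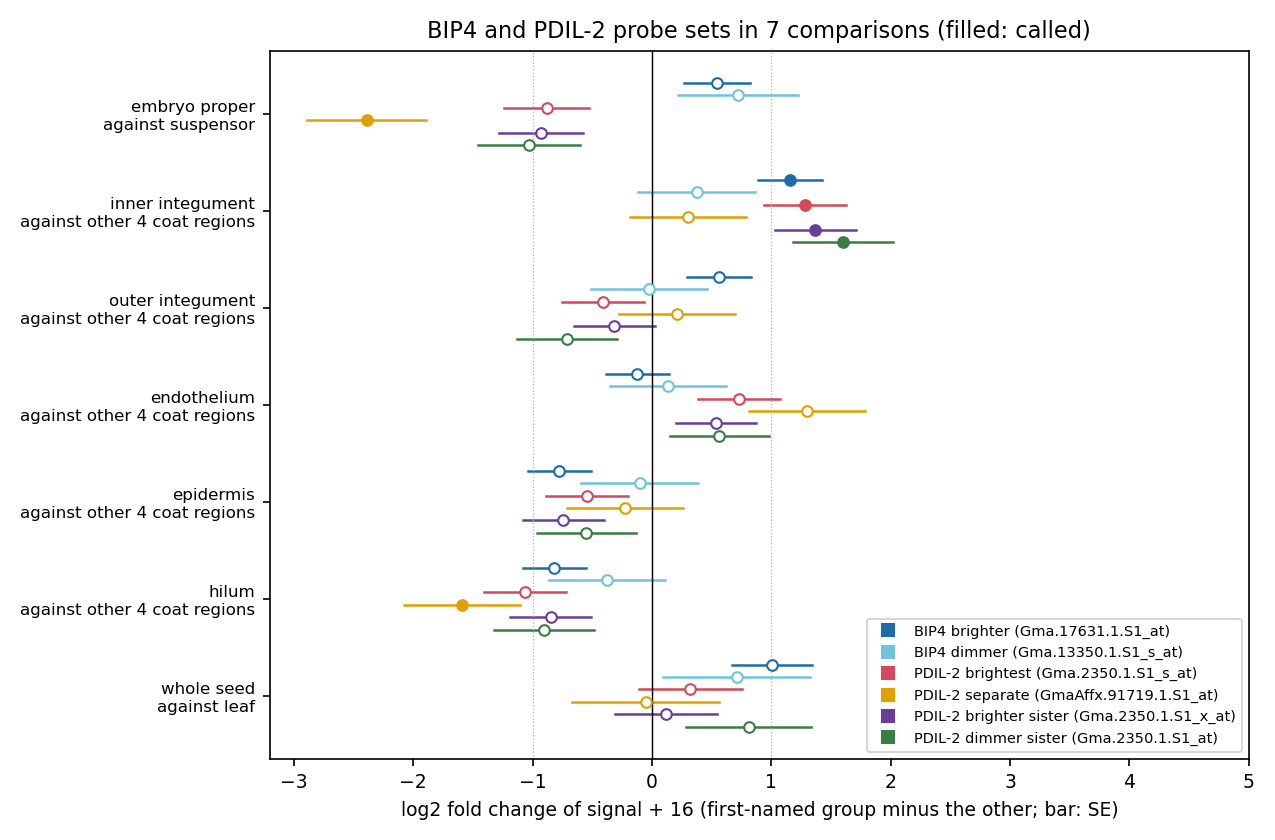
Log2 fold change of signal + 16 (x axis, first-named group minus the other) with its SE for the 6 probe sets in 7 comparisons; filled points were called. Calls lie in inner integument (4 probe sets, 1.16 to 1.60), in hilum (1, -1.59) and in embryo proper against suspensor (1, -2.39).

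Hilum, where the seed joins its stalk, was at the low end for both genes. BIP4 was 1.76-fold lower in hilum (-0.82 ± 0.27, adjusted p = 0.056) and PDIL-2 2.09-fold lower (-1.06 ± 0.34, adjusted p = 0.054), neither of them called. All 6 probe sets pointed down there, by 0.38 to 1.59, as all 6 also did in epidermis. In hilum 1 was called, where 4.77% of all tested probe sets were called lower and 9.09% in either direction. That was the separate PDIL-2 probe set, 3.01-fold lower (-1.59 ± 0.48, adjusted p = 0.04) at 249.9 and 484.6 in hilum, below every array of the other regions. Its call was lost on leaving out any of 11 arrays and under 6 of 12 other settings, and the brightest PDIL-2 probe set gained one under 7 of 12 other settings.

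The remaining regions gave no call for either gene. Endothelium, the innermost coat layer, differed by -0.12 for BIP4 (adjusted p = 0.89) and by 0.73 for PDIL-2 (adjusted p = 0.27). Of all tested probe sets 6.53% were called in that comparison. Outer integument differed by 0.56 for BIP4 (adjusted p = 0.29) and by -0.41 for PDIL-2 (adjusted p = 0.67), where 7.01% were called. Epidermis differed by -0.78 for BIP4 (adjusted p = 0.079) and by -0.54 for PDIL-2 (adjusted p = 0.43), where 7.88% were called. All 6 probe sets pointed down in epidermis, at -0.78 to -0.10. The opposite signs in endothelium and outer integument were not tested against each other.

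Whole seed against leaf asked whether the genes were higher in the young seed as a whole. BIP4 was 2.01-fold higher in whole seed (1.01 ± 0.34) with an adjusted p of 0.051, just outside the threshold. PDIL-2 differed by 0.32 ± 0.44 (1.25-fold higher, adjusted p = 0.75). None of the 6 probe sets was called by limma, while 13.2% of all tested probe sets were. Leaving out leaf replicate 1 gave 1.36 for BIP4 and a call (adjusted p = 0.043).

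The other genes of the folding and quality control list were 11 in number, 10 of them tested. In inner integument 3 were called higher and none lower, beside the 7.66% and 11.2% of all tested probe sets given above, with a median log2 difference of 0.69, against -0.05 over all tested probe sets. PDIM-1, another protein disulfide isomerase gene, read 37988.5 and 60442.8 in inner integument, above all 8 other coat arrays (14061.8 to 33206.2). It was 2.13-fold higher there (adjusted p = 0.0066), a call that was also lost without inner integument replicate 2 (0.76, adjusted p = 0.22). BZIP28 read 10509.4 and 13379.4 in inner integument, 3.59-fold above the other regions (adjusted p = 3.4e-05) and without overlap. In Arabidopsis the gene of that name encodes a membrane-held transcription factor that is released when unfolded proteins accumulate. BZIP68, a basic leucine zipper gene on the list by its symbol alone, was 2.82-fold higher (adjusted p = 3.5e-05). The calls of BZIP28 and BZIP68 held on leaving out any single array. Across the 5 regions the F test called 5 of the 10, namely these 3, BZIP62 and NRP-B, where 25.8% of all tested probe sets were called, with a median range of 1.44 against 1.47 over all tested probe sets. The call of NRP-B was lost on leaving out any of 16 arrays, that of PDIM-1 without inner integument replicate 2 and that of BZIP62 without epidermis replicate 1.

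BIP2, the other BiP gene of the list, had another order of groups. It read 2483.8 and 1897.2 in inner integument, 22.3% of its highest group as a mean, and the inner integument difference was -0.40 (adjusted p = 0.35). Its highest group was endosperm (9819.8 ± 2904.5, n = 3), followed by suspensor (7010.1 ± 1035.2, n = 3). In whole seed BIP2 read 2595.5 and 3389.9, against 1130.2 and 932.3 in leaf, 2.86-fold higher (adjusted p = 0.0051). That call was lost without whole seed replicate 2 (1.33, adjusted p = 0.089) or leaf replicate 2 (1.38, adjusted p = 0.068). Genes of 1 family can share probe matches, and as no sequence was used here, whether the probe sets of BIP2 and BIP4 detect each other's transcripts was not checked. Their group means correlated at r = 0.29.

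**Figure D4:**
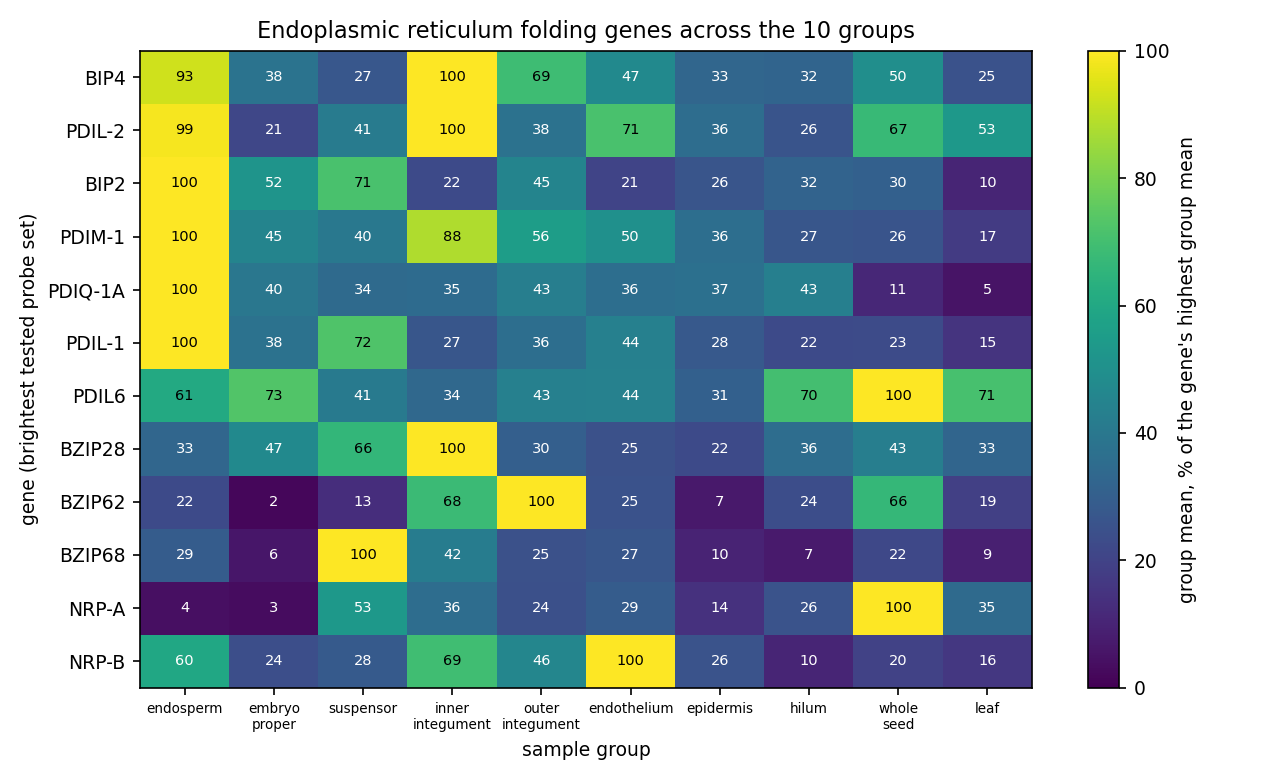
Group means of BIP4, PDIL-2 and the 10 tested genes of the folding and quality control list (brightest tested probe set each) in the 10 sample groups, as a percentage of each gene's own highest group. Endosperm is at 93% for BIP4, 99% for PDIL-2 and 100% for BIP2, PDIM-1, PDIQ-1A and PDIL-1, while inner integument is at 100% for BIP4, PDIL-2 and BZIP28 and at 22% for BIP2.

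In endosperm, set against the mean of embryo proper and suspensor, 3 of the 10 other genes were called higher and 1 lower, where 8.9% of all tested probe sets were called higher and 19.2% in either direction, with a median of 0.76 against 0.16 over all tested probe sets. PDIM-1 was 2.24-fold higher (adjusted p = 0.0015), reading 83199.2, 49871.4 and 34481.8 in endosperm against 17344.3 to 30209.3 in the 6 embryo arrays. Its highest array was endosperm replicate 1, and without that array it was 0.83 higher and no longer called (adjusted p = 0.019, under 2-fold). BZIP62 was 5.94-fold higher (adjusted p = 0.002) on arrays that overlapped, against a level below background on 3 of 6 embryo arrays. PDIQ-1A, whose symbol is of the disulfide isomerase family, was 2.86-fold higher (adjusted p = 0.043), a call kept on leaving out only 6 of the 23 arrays in turn. NRP-A, an asparagine-rich protein gene of soybean stress signalling, was 3.04-fold lower (adjusted p = 0.0076) on arrays that overlapped. Its mean was 515.6 in endosperm, 411.2 in embryo proper and 6449.6 in suspensor, so the difference rested on suspensor. PDIL-1, a symbol listed as a synonym in the RefSeq table, was named after its values were seen: its brightest probe set was 1.79-fold higher (adjusted p = 0.029, not called) and its other one 3.84-fold higher (adjusted p = 9.5e-07). That other probe set was also called among the coat regions (F test, adjusted p = 0.00045), higher in endothelium (2.58-fold, adjusted p = 0.00092) and higher in whole seed than in leaf (2.73-fold, adjusted p = 0.0026), where the brightest one was not. The counts of the list go by the brightest probe set of each gene.

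Within the embryo, none of the 10 genes was called higher in embryo proper and 3 were called lower, where 23.1% of all tested probe sets were called in either direction, with a median of -0.47 against 0.07 over all tested probe sets. BZIP68 read 1324.8, 1334.7 and 1317.8 in embryo proper, against 26648.7, 20980.7 and 18475.3 in suspensor, 16.2-fold lower (adjusted p = 1.4e-10). NRP-A was 14.4-fold lower (adjusted p = 4e-06). BZIP62 was 4.6-fold lower (adjusted p = 0.016) with 1 of 3 embryo proper arrays above background, a call lost without embryo proper replicate 1 or 3 or suspensor replicate 2 or 3 (adjusted p = 0.064 to 0.11). By their brightest probe sets the chaperone and disulfide isomerase genes were not among these calls: BIP2 differed by -0.47 (adjusted p = 0.26) and PDIM-1 by 0.20 (adjusted p = 0.68). PDIL-1 fell short by its brightest probe set (-0.88, adjusted p = 0.043, under 2-fold), while its other probe set was called, 2.58-fold lower in embryo proper (adjusted p = 0.00036).

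In hilum 3 of the 10 genes were called lower and none higher (median -0.25, against 0.04 over all), where 4.77% of all tested probe sets were called lower. They were BZIP68 (3.11-fold, adjusted p = 3.2e-05), PDIM-1 (2.02-fold, adjusted p = 0.021) and NRP-B (adjusted p = 0.033). NRP-B read 54.7 and 7.0 in hilum, both below background, and 4 of the 8 other coat arrays were below it too, so no fold is given. The calls of PDIM-1 and NRP-B were lost on leaving out any of 6 and 7 arrays, hilum replicates 1 and 2 among them. In epidermis 2 were called lower (median -0.60 against 0.03, with 7.88% of all called), BZIP62 by 6.21-fold (adjusted p = 0.0099) and BZIP68 by 2.13-fold (adjusted p = 0.0025). Without epidermis replicate 2 neither was called (-2.85 and -1.03), and without replicate 1 BZIP62 was not (-2.42). In outer integument BZIP62 was called higher (4.21-fold, adjusted p = 0.05 after rounding), a call kept on leaving out only 5 of the 23 arrays, where 7.01% of all were called. In endothelium none was called by limma (median 0.07 against -0.01, with 6.53% of all called). In whole seed against leaf 2 of the 10 were called higher (median 0.82 against 0.12, with 13.2% of all called), BIP2 as above and BZIP68 by 2.42-fold (adjusted p = 0.0029), a call lost without whole seed replicate 2 (1.16, adjusted p = 0.059).

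The genes whose group means followed BIP4 most closely were picked among 850 named genes by Pearson's r over the 10 group means (log2), with no test. They were OAS-TL2 (r = 0.887), an O-acetylserine (thiol) lyase gene of cysteine synthesis, WRKY22 (0.879), PERK1 (0.855), PDIM-1 (0.833) and USP1 (0.815). OAS-TL2 averaged 1470.9 in endosperm and 527.6 in inner integument, its highest groups, against 18.8 in hilum. Its means in hilum, embryo proper (63.3), suspensor (73.8), endothelium (73.3), epidermis (126.6) and leaf (55.1) were below the background of their arrays. For PDIL-2 they were PGLCAT8 (0.854), MS (0.847), FAD3C (0.837), ARF (0.823) and GF14A (0.815), with no gene in both lists. FAD3C, an omega-3 desaturase gene of the endoplasmic reticulum, averaged 35924.7 in inner integument, 12505.2 in endothelium and 5579.4 in endosperm, against 116.0 in epidermis. That epidermis mean was below the background of its arrays. The GF14A means in embryo proper (101.5), epidermis (130.4), hilum (55.6) and outer integument (108.0) were also below background. So were the MS means in hilum (92.2) and outer integument (121.2). BIP4 and PDIL-2 themselves correlated at 0.625 over the groups and 0.651 over the 23 arrays.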

How the data were processed

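The deposited values are linear signal intensities for each probe set of an array. Per the submitters' processing notes they came from GCOS 1.3; how probes were summarised is not given in the sources used. All 23 arrays share a common scale and were not rescaled. Background per array was the 95th percentile of 23350 pathogen probe sets, which may cross-react, so it is an upper estimate. Soybean probe sets were tested (25686 of 37593) where some group had all of its arrays above background. For log2(signal + 16), a model with 1 mean per group was fitted over the 23 arrays by limma 3.58.1 under R 4.3.3 (lmFit, eBayes with trend, 13 residual degrees of freedom), with two-sided contrasts. P-values were adjusted by Benjamini-Hochberg over every probe set tested. Folds on that scale understate changes of dim genes. The precision is limited by the number of arrays.

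Called means a fold of 2 or more with an adjusted p below 0.05; for the F test over the 5 coat regions, an adjusted p under 0.05 alone. Genes were named from the platform annotation (8677 soybean probe sets with 1 gene, 370 with several, 28546 unnamed here), checked against the RefSeq table of Glycine_max_v4.0. Of 6031 genes, 6010 were found there. No sequence or coordinate is given, as none was used here.

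The members, the lists (endoplasmic reticulum folding and quality control, heat shock, seed storage), the markers and the tests were chosen with earlier results of these data known. Every probe set of BIP4 and PDIL-2 is described. From the folding list, genes called in a comparison are named, up to 4 with the smallest adjusted p, by their brightest probe set, and likeness is by the 5 highest correlations. The alternatives were the offset, scaling, filters, array weights, the spread, a replicate block and leaving out arrays. After the data were seen, the fit without both arrays of high actin ratio was added.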

Additional observations from a re-analysis of the deposited data

How the results depend on the processing

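Each comparison was refitted under 12 other settings and on leaving out each of the 23 arrays in turn, where the lone array left in a group of 2 is assumed to vary like the others. Of 976 values of the 6 probe sets, 911 were labelled unchanged. In the tested comparisons unchanged meant the same direction and the same side of the threshold. In the contrast that chose the genes it meant the same direction and a shift below the SD of the endosperm arrays. Beyond the brightest probe set of each gene, only tested comparisons with a call were counted. All values below are log2 differences or counts of called probe sets.

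The inner integument difference lost its call with equal medians (BIP4 0.937, PDIL-2 1.067) and without both arrays of high actin ratio (0.739 and 0.918), and with equal medians PDIL-2 was not called in the F test over the coat regions (1.569). PDIM-1 fell under 2-fold in inner integument with equal medians (0.873) and quantile normalization (0.915). Scaling to equal medians moved the median of all tested probe sets in hilum to 0.195, against 0.036 as deposited, and the share of calls higher in hilum to 57.7%, against 47.6%.

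BIP4 in whole seed against leaf was called with an offset of 64 (1.002), with quantile normalization (1.279), and at 1.007 with array weights, with only the arrays compared, and without both arrays of high background or both of high actin ratio. PDIL-2 in embryo proper against suspensor was called without the 2 arrays of high background (-1.231) and with array weights (-1.094). PDIL-2 in hilum was called with an offset of 64 (-1.024), and at -1.063 with quantile normalization, with a filter on every array, with array weights, without the 2 arrays of high background and with only the arrays compared. The cause was not tested.

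Replicate numbers showed no common deviation across groups. Deviations from the group mean correlated at a median of 0.00664 (-0.135 to 0.263, 93 pairs) for the same number. For different numbers the median was -0.0053 (-0.224 to 0.167, 144 pairs). With few arrays per group, this cannot tell whether regions of the same number shared plants. With the replicate block PDIL-2 in hilum was called (-1.063, adjusted p = 0.036), BIP4 in inner integument stayed at 1.155, and no other call of the brightest probe sets changed.

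Leaving out 1 array gave, for BIP4, 0.739 to 1.572 in inner integument, -0.27 to 0.024 in endothelium (0.024 without endothelium replicate 2, reversed) and 0.657 to 1.357 in whole seed against leaf. There BIP4 was called without suspensor replicate 1 or 3, endosperm replicate 1, inner integument replicate 1 or 2, or leaf replicate 1. For PDIL-2 it gave 0.918 to 1.649 in inner integument, 1.512 to 2.243 in the F test (not called without inner integument replicate 2), -1.154 to -0.971 in hilum and -1.231 to -0.629 in embryo proper against suspensor. PDIL-2 in hilum was called without suspensor replicate 1 or 3, endosperm replicate 1 or 3, or inner integument replicate 1. The separate PDIL-2 probe set in hilum (-2.045 to -1.132) lost its call without any of endothelium 1, epidermis 2, hilum 1 or 2, inner integument 2, outer integument 1 or 2, whole seed 1 or 2, or leaf 1 or 2.

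Counts of called probe sets fell under the filter on every array, which tests fewer of them: 2048 (5934 otherwise) in embryo proper against suspensor, 1526 (4941) in endosperm, 1835 (4837) in inner integument, 387 (1801) in outer integument, 460 (1677) in endothelium, 599 (2023) in epidermis, 696 (2334) in hilum, 2653 (6629) in the F test and 977 (3385) in whole seed against leaf. Array weights gave 4289 in hilum, 3266 in outer integument and 7030 in whole seed against leaf, where only the arrays compared gave 6629. Without both arrays of high actin ratio inner integument had 3000. Leaving out 1 array gave 531 to 2018 in endothelium, 791 to 2499 in epidermis, 824 to 2879 in hilum, 2589 to 5538 in inner integument, 643 to 2130 in outer integument and 1674 to 4066 in whole seed against leaf. Signal over background limits the dimmer BIP4 probe set and the separate PDIL-2 probe set, below background on 2 and 1 of the 23 arrays.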

Other observations

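Heat shock proteins, which are chaperones outside the folding list, and heat shock factors, which are transcription factors, were described together by counts for comparison (18 genes, 17 tested). Most of the calls named below are of factors (HSF). The share of all tested probe sets called in either direction is given beside each count, and nothing is read from a count near it. In endosperm against the mean of the embryo regions 3 were called higher, HSF-26, HSF-35 and HSP90A1, and 2 lower, CYP1 and HSF-01, with a median log2 difference of 0.68 against 0.16 over all tested probe sets (19.2% of all called). CYP1 was put on the list as a cyclophilin and is named as neither a heat shock protein nor a factor. In embryo proper against suspensor 2 were called higher and 4 lower (median -0.44 against 0.07, 23.1% of all called). In inner integument HSF-35 was called higher and HSF-01 and HSP23.9 lower (median -0.17 against -0.05, 18.8% of all called). Epidermis had 1 call in each direction (median 0.18, 7.88% of all called), hilum 1 higher (0.09, 9.09%) and outer integument 1 lower (0.21, 7.01%). Endothelium (-0.16, 6.53% of all called) and whole seed against leaf (0.55, 13.2%) had no call by limma, and the F test over the coat regions called 3 (25.8% of all).

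Seed storage and vacuolar proteins pass through the endoplasmic reticulum, and 8 of the 18 listed genes were bright enough to test at this early stage. In endosperm none was called higher and 2 were lower, KTI-3 and KTI3, both named as Kunitz trypsin inhibitors (median -0.62 against 0.16, with 19.2% of all tested probe sets called). In inner integument BBI-1 and SBPRP were called higher (median 0.34 against -0.05, with 7.66% of all called higher and 18.8% in either direction). SBPRP was listed by the first letters of its symbol alone, and whether it is a storage or vacuolar protein was not checked. It was among the calls in every coat region and in the F test, and was the only call in endothelium and in hilum. Embryo proper against suspensor had 2 called higher, KTI-3 and VSPA (median 0.59, 23.1% of all called). Outer integument had 2 higher and 1 lower (0.14, 7.01% of all called), epidermis 2 higher (0.53, 7.88%), endothelium 1 lower (-1.0, 6.53%) and hilum 1 lower (-0.84, 9.09%). In whole seed against leaf KTI-2 and VSPA were called lower (-0.56, 13.2% of all called), and the F test called 3 (25.8% of all).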
